A study of Homo sapiens with 12 samples.

Results

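Acadesine and rituximab were each given alone and together to mice bearing tumors of JEKO-1, a human mantle cell lymphoma line, and the question addressed here is whether the expression change under both drugs equalled the sum of the changes under each. All 12 tumors of the series entered, 3 in each of 4 groups: vehicle control, acadesine, rituximab and the combination. The tumors grew under the skin of female CB17-SCID mice, a strain without functional B and T cells, and the mice received acadesine at 400 mg/kg, rituximab at 10 mg/kg, both or vehicle for 18 days. Expression was read on a human whole-genome array and deposited as log2 values, 1 value per probe set. The measure is the combination mean minus the acadesine mean minus the rituximab mean plus the control mean, in log2 units, called here the departure from additivity. It is 0 when the combination lies at the additive expectation, and a departure of 1 means a level 2-fold above that expectation. It was estimated for 18239 genes, and a gene was called when the Benjamini-Hochberg adjusted p of the limma moderated test over all of them was under 0.05.

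Acadesine enters cells, is phosphorylated by adenosine kinase (ADK) to an AMP mimic and activates AMP-activated protein kinase, the cell's energy sensor. Rituximab binds CD20, the product of MS4A1, on the B cell surface and acts through signaling from CD20, complement and the Fc receptors of host macrophages and natural killer cells. An additive sum on a log scale means that each drug multiplies a transcript's level by the same factor whether or not the other drug is present.

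The labelled cell type was borne out by its markers: MS4A1 lay between 11.86 and 12.59 in the 12 tumors, CCND1, the cyclin D1 gene that mantle cell lymphoma overexpresses, between 11.98 and 12.38, and CD79B, a B cell receptor subunit, between 11.67 and 12.01, against a median of 5.26 over all genes. Pairs of arrays correlated at 0.989 to 0.996 across genes. The mean level of a list of 56 skeletal muscle genes stood apart in some tumors: relative to the control mean it was 0.93 in combination 2, 0.45 in combination 3, 0.32 in acadesine 2 and 0.25 in rituximab 2, and from -0.07 to 0.14 in the other 8. The main departures are also given without these 4 tumors, which leaves combination 1 as the 1 combination tumor, or with the muscle level as a covariate. In a whole tumor, fewer cells of a type and less RNA per cell cannot be told apart, and mouse RNA can bind some human probes.

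Departures from additivity were called for 51 genes, which is 0.28% of the genes tested: 37 lay above the additive expectation (0.203%) and 14 below it (0.0768%). At an unadjusted p under 0.05 there were 1973 genes, or 10.8%. The called departures ran from 0.48 to 3.06 in size with a median of 1.36, and 33 exceeded 2-fold. Across all genes the median departure was -0.01 and the median standard error 0.19. Neither drug alone gave a called gene against control (0 of 18239 for each), although 1423 genes for acadesine and 768 for rituximab had an unadjusted p under 0.05, while the combination against control gave 450, or 2.47%. Added to rituximab, acadesine gave 515 called genes (2.82%), and added to acadesine, rituximab gave 446 (2.45%).

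Among the 37 genes above the expectation, both single-agent means were below control in 33 and the combination mean was above control in 36. Their median change was -0.22 with acadesine, -0.36 with rituximab and 0.93 with the combination. The 14 genes below the expectation leaned the other way, with median changes of 0.12, 0.14 and -0.52. Both single-agent means were above control in 10 of the 14, and the combination mean was below control in all 14. In 30 of the 37 the 3 combination tumors lay above all 9 other tumors, an ordering found in 3.10% of all genes, and in 13 of the 14 they lay below all 9, against 2.94%. The group means are parts of the contrast, so the calls themselves favor these signs as well as this ordering. These counts describe the called genes and are no further evidence. With a limit of 0.5 log2 units for a single-agent mean near control, 26 of the 37 and 13 of the 14 had both single agents near control. In 10 of the 37 and 1 of the 14 the single-agent changes summed to the side opposite the combination's change against control. This split moved with the limit: at 0.3 it was 11 near control and 24 opposite of the 37, and 10 and 4 of the 14, and at 0.7 it was 33 and 4 of the 37.

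**Figure D1:**
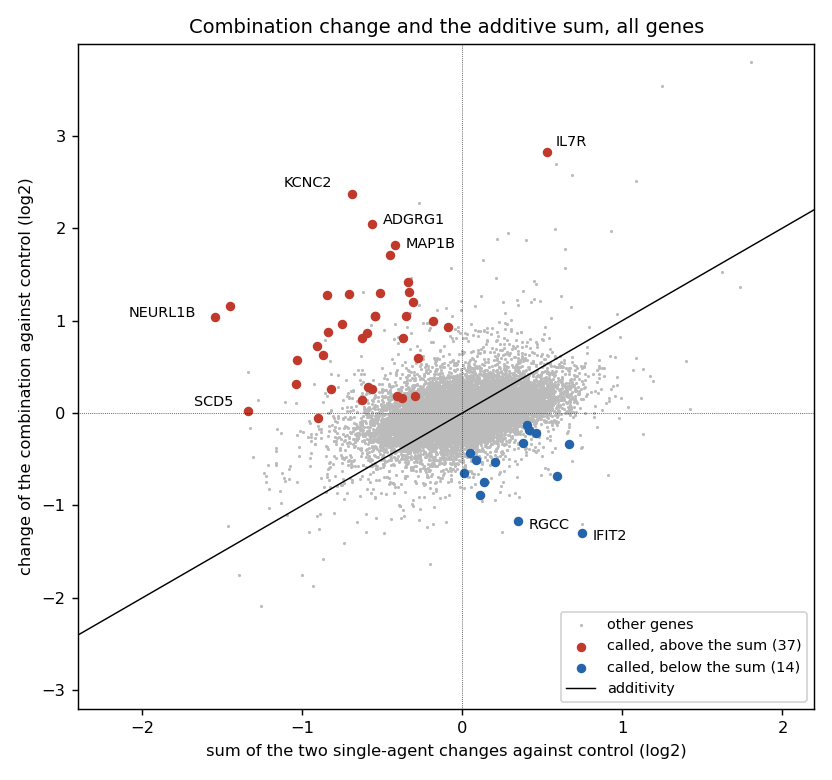
Each point is 1 of 18239 genes; the x axis is the sum of the acadesine and rituximab changes against control and the y axis the combination change against control, both in log2 units, and the line marks additivity. The 37 genes called above the sum (red) lie mostly left of 0 on the x axis and above 0 on the y axis, and the 14 called below (blue) mostly right of 0 and below 0.

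KCNC2, which encodes a voltage-gated potassium channel subunit best known from fast-firing neurons, had the largest departure of the genes tested. Its values were 5.09, 5.67 and 5.41 in the control tumors, 4.83, 4.23 and 5.88 with acadesine, 5.03, 4.75 and 5.54 with rituximab and 8.11, 7.53 and 7.63 with the combination. The combination tumors were separate from all others, which overlapped among themselves. The departure was 3.06 ± 0.42 (SE, 3 tumors per group), 8.32-fold above the expectation, with a 95% interval of 2.18 to 3.93 and an adjusted p of 0.00372 in limma.

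MAP1B, which encodes a microtubule-associated protein of growing axons, had a like pattern. Its values were 6.05, 5.64 and 5.33 in control, 5.64, 4.92 and 5.82 with acadesine, 5.65, 5.47 and 5.30 with rituximab and 7.60, 7.45 and 7.44 with the combination. The single-agent tumors overlapped the controls, and the combination tumors were again separate. The departure was 2.24 ± 0.31, with a limma adjusted p of 0.00372. SCN3A, a voltage-gated sodium channel gene, had a departure of 1.63 ± 0.29 with an adjusted p of 0.0191. Of the 50 measured genes of a list of neuronal genes and tubulins these 3 were called, all higher, where 0.203% of all genes were. That list was drawn up with earlier results of these data known, so the excess of calls is no evidence about the list. At an unadjusted p under 0.05, 11 of its members were higher and 2 lower. The list's median departure was 0.03, with 26 members above 0 and 24 below. TUBB2B (1.89 ± 0.44, adjusted p = 0.0753) and TUBB3 (1.67 ± 0.40, adjusted p = 0.0773), both beta-tubulins, missed the threshold in limma. TUBA8, an alpha-tubulin gene outside that list, was called at 1.81 ± 0.38 (adjusted p = 0.039).

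IL7R encodes the receptor for interleukin 7, the cytokine that lymphoid progenitors need for growth. It read 4.26, 4.86 and 4.36 in control, 4.55, 4.55 and 5.01 with acadesine, 4.89, 4.58 and 4.97 with rituximab and 6.85, 8.04 and 7.07 with the combination. IL7R was the only called gene above the expectation whose single-agent means were both above control, by 0.21 and 0.32, and the combination exceeded control by 2.83. The departure was 2.30 ± 0.35, or 4.92-fold, with a limma adjusted p of 0.00761. The other lymphoid progenitor and V(D)J recombination genes were not called among 27 measured, whose median departure was 0.06. At an unadjusted p under 0.05, 10 of the 27 were higher and 2 lower, against 5.65% and 5.17% of all genes. SOX4 came nearest to the threshold, at 0.56 ± 0.12 (limma adjusted p = 0.0509). CD9, a tetraspanin of early B cells, had 1.52 ± 0.46 (adjusted p = 0.173), and RAG1, a subunit of the V(D)J recombinase, 1.43 ± 0.51 (adjusted p = 0.274). On the lower side XRCC4 had -0.42 ± 0.17 (adjusted p = 0.37) and MME -0.35 ± 0.15 (adjusted p = 0.4).

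NEURL1B, an E3 ubiquitin ligase gene of the Notch pathway, differed in shape because the single agents were themselves low. Its values were 6.08, 5.38 and 6.14 in control, 5.58, 4.72 and 5.87 with acadesine, 4.61, 4.61 and 5.18 with rituximab and 7.42, 6.33 and 6.96 with the combination. All 3 rituximab tumors were below all 3 controls, and all 3 combination tumors were above them. The additive expectation of 4.32 was 2.58 ± 0.41 below the observed mean (limma adjusted p = 0.0104). ADGRG1, an adhesion G protein-coupled receptor gene also known as GPR56, had a departure of 2.61 ± 0.50 and PSD3, an exchange factor for the small GTPase ARF6, 2.61 ± 0.52. NPPA, the atrial natriuretic peptide gene, and ZNF709, a zinc finger gene, followed with 2.17 ± 0.45 and 2.13 ± 0.43. These 4 had adjusted p values between 0.0247 and 0.039 in limma.

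FMNL2 encodes a formin that builds actin filaments at the cell edge. It read 5.06, 5.95 and 5.22 in control, 4.99, 4.86 and 5.71 with acadesine, 4.75, 4.80 and 5.24 with rituximab and 6.90, 6.55 and 6.64 with the combination. The lowest combination tumor was above the highest of the other 9. The departure was 2.00 ± 0.34 with a limma adjusted p of 0.0144. Among 69 measured genes of the non-muscle actin cytoskeleton FMNL2 was the 1 called, with 37 members above 0, 32 below and a median of 0.00. At an unadjusted p under 0.05, 5 members were higher, FMNL2 included, and 4 lower. ADD2 of the same list had 1.44, not called, and 1.73 on another probe set, which was called over all probe sets. LIMA1 was the lowest member at -0.75. LDB3, which encodes a protein of the muscle Z-disc, was the 1 called gene of the 56 skeletal muscle genes, at 1.76 ± 0.33 (adjusted p = 0.0202), and that list's median departure was 0.02. LDB3 was 1.70 with the muscle level as a covariate (adjusted p = 0.0368) and 1.28, no longer called, without the 4 tumors of high muscle level, a value that rests on combination 1 alone.

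**Figure D2:**
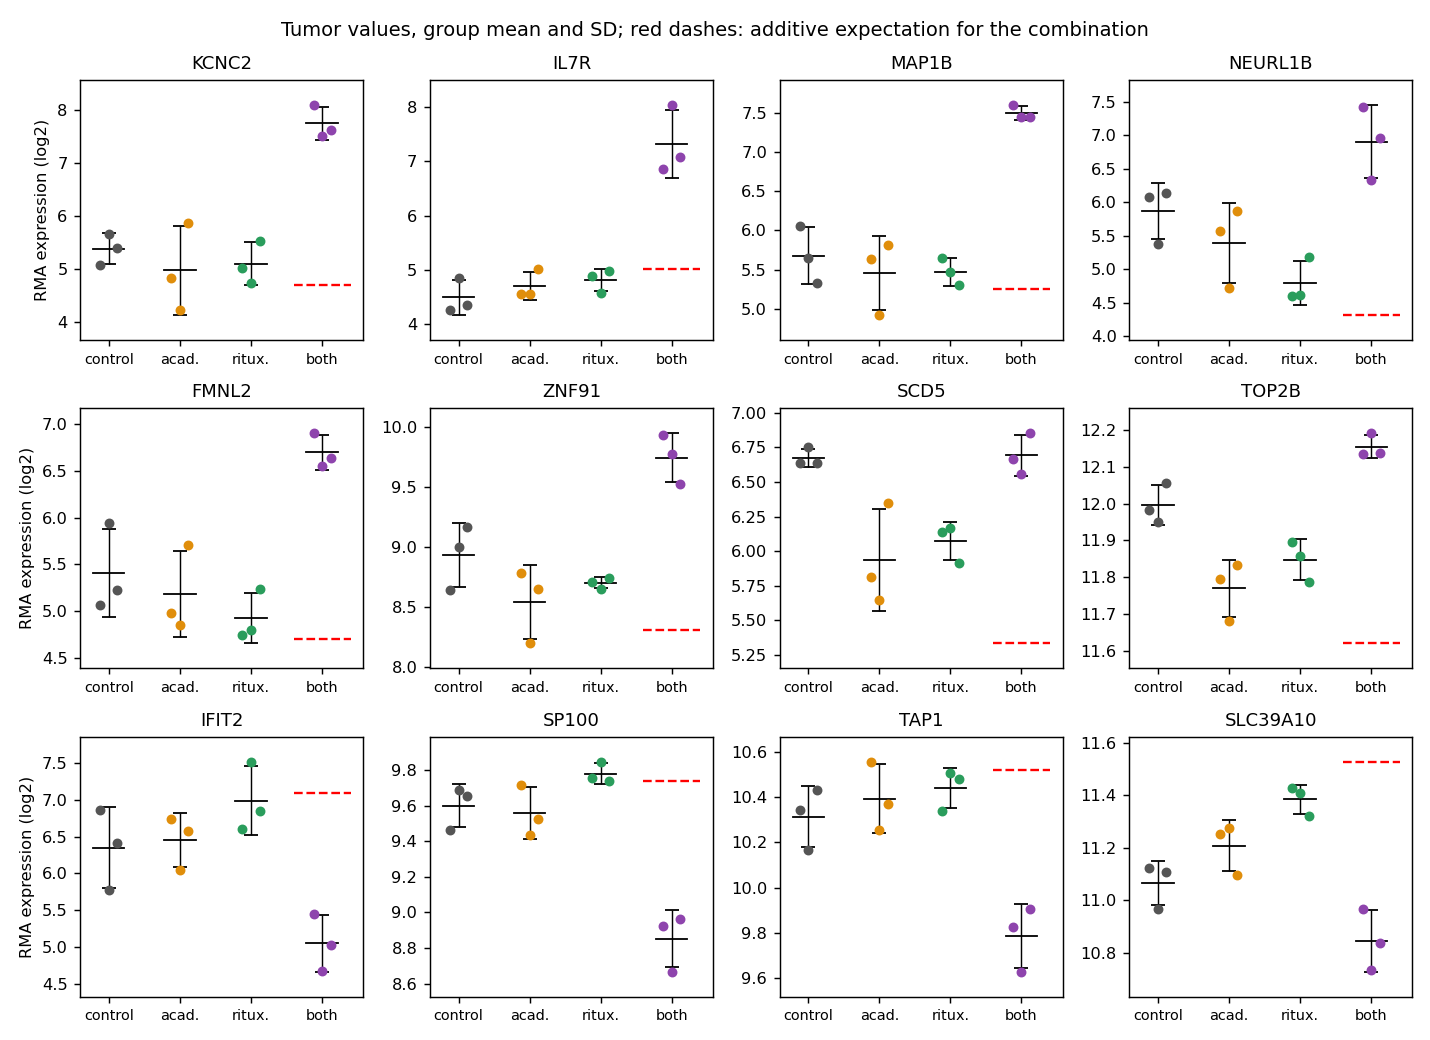
Log2 expression of 12 genes in the 12 tumors: dots are tumors, horizontal bars group means, vertical bars SD (n = 3), and the red dashes mark the additive expectation for the combination (control, acadesine, rituximab and both drugs from left to right). In the upper 2 rows the combination lies above the dashes, by 0.54 for TOP2B to 3.06 for KCNC2, and in the bottom row below them, by -0.68 for SLC39A10 to -2.04 for IFIT2.

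In some called genes the combination mean lay near the control mean. SCD5, a stearoyl-CoA desaturase gene, read 6.63, 6.75 and 6.64 in control, 5.81, 5.64 and 6.35 with acadesine, 6.13, 6.17 and 5.92 with rituximab and 6.67, 6.56 and 6.85 with the combination. The 6 single-agent tumors all lay below the control and combination tumors, which overlapped. SCD5 changed by -0.74 and -0.60 with the single agents and by 0.02 with the combination, so that the departure was 1.36 ± 0.25 (limma adjusted p = 0.0202). ZMIZ1, a transcriptional coregulator gene, changed by -0.27 with acadesine, -0.63 with rituximab and -0.06 with the combination. Of the 37, 9 had a combination mean within 0.3 of control, and of the 14 below the expectation 3 did. A mean this near did not always go with overlap. The combination tumors of TOP2B, VIM, FOXP1 and SMARCC1 lay above all other tumors, and those of GSTO1 and NAA38 below. Those of SCD5, ZMIZ1, CHML, RIF1, N4BP2 and SLC39A10 overlapped others. Neither single-agent change of SCD5 or ZMIZ1 was called by itself.

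The smaller called departures above the expectation included widely used nuclear genes. TOP2B, the DNA topoisomerase of non-dividing and dividing cells alike, read 11.98, 11.95 and 12.06 in control, 11.79, 11.68 and 11.83 with acadesine, 11.90, 11.86 and 11.79 with rituximab and 12.14, 12.19 and 12.14 with the combination. The 4 groups were ordered without overlap between the single agents, the controls and the combination. The departure was 0.54 ± 0.09, a level 1.45-fold above the expectation (limma adjusted p = 0.0143). FOXP1, a transcription factor of B cell development, had 0.59 ± 0.11 and SMARCC1, a core subunit of the SWI/SNF chromatin remodeler, 0.83 ± 0.16, both with an adjusted p of 0.0202. VIM, the vimentin gene, was the smallest called departure at 0.48 ± 0.10 (adjusted p = 0.039). ZNF91, a zinc finger gene of the KRAB repressor family, read 8.64, 8.998 and 9.16 in control, 8.78, 8.20 and 8.65 with acadesine, 8.71, 8.65 and 8.74 with rituximab and 9.93, 9.77 and 9.53 with the combination. Its combination tumors were separate from the rest, and the departure was 1.44 ± 0.21 (adjusted p = 0.00566). The array's name for this ZNF91 probe set ends in a suffix that marks probes able to match other sequences, so related zinc finger transcripts may contribute.

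Interferon-stimulated genes, the antiviral and antigen-processing genes that type I interferon turns on, had the lowest median departure of the 25 lists examined. Of 64 measured, 54 had a departure below 0 and 10 above, with a median of -0.49 against -0.01 for all genes. Only IFIT2 and SP100 were called, both lower, and 32 of the 64 had an unadjusted p under 0.05 on the lower side and 0 on the higher side, against 5.17% and 5.65% of all genes. The median change of the list was 0.00 with acadesine, -0.00 with rituximab and -0.47 with the combination. Relative to the control mean, the list's mean level lay at -0.36, -0.78 and -0.42 in the combination tumors and between -0.26 and 0.18 in the other 9. The combination tumors were thus below all others, and combination 2, the lowest, was also the tumor of the highest muscle level. Without the 4 tumors of high muscle level, where the departure rests on combination 1 alone, the median was -0.33 with 52 of 64 below 0, and it was -0.42 once the muscle level entered as a covariate. Markers of host macrophages and granulocytes, which can also express these genes, had a median departure of -0.18 with 14 of 21 below 0 and 0 called. Their mean level was 4.54 to 4.61 in the combination and 4.59 to 4.71 in the other groups, below the median of 5.26 over all genes. The probes are human, so these low values may not track the mouse cells. The part of host cells in the result was not tested.

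IFIT2 encodes an interferon-induced protein that binds viral RNA and the translation machinery. Its values were 6.87, 5.77 and 6.41 in control, 6.75, 6.04 and 6.58 with acadesine, 6.61, 7.52 and 6.84 with rituximab and 5.45, 4.68 and 5.03 with the combination. The combination tumors were below every other tumor. IFIT2 changed by 0.11 with acadesine, 0.64 with rituximab and -1.30 with the combination, a departure of -2.04 ± 0.38, or 4.12-fold below the expectation (limma adjusted p = 0.0202). IFIT1, of the same family, had -1.94 ± 0.46 (adjusted p = 0.0773), IFIT3 -1.26 ± 0.40 (adjusted p = 0.201) and IFIT5 -1.16 ± 0.36 (adjusted p = 0.194).

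SP100 encodes a component of PML nuclear bodies, and it read 9.46, 9.69 and 9.65 in control, 9.72, 9.43 and 9.52 with acadesine, 9.76, 9.85 and 9.74 with rituximab and 8.92, 8.67 and 8.96 with the combination. The departure was -0.89 ± 0.15 (limma adjusted p = 0.0153), and the combination tumors did not overlap the others. SP110, its paralog, had -0.68 ± 0.15 (adjusted p = 0.0506) and ISG20, an RNA exonuclease gene, -0.65 ± 0.15 (adjusted p = 0.0765). IRF1, an interferon regulatory factor, had 0.14 ± 0.21, and GBP3, a guanylate-binding protein gene near the array's floor in all 12 tumors, 0.18 ± 0.16.

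HLA class I antigen presentation, the path by which cells load peptides from the cytosol for display to T cells, had 19 of 20 measured genes below 0 and a median of -0.29. TAP1, one subunit of the peptide pump into the endoplasmic reticulum, was the 1 called. It read 10.35, 10.17 and 10.43 in control, 10.56, 10.26 and 10.37 with acadesine, 10.34, 10.51 and 10.48 with rituximab and 9.83, 9.63 and 9.91 with the combination. All 3 combination tumors were below the rest, and the departure was -0.73 ± 0.14 (limma adjusted p = 0.0247). TAP2, its partner, had -0.73 ± 0.17 (adjusted p = 0.0723), and the immunoproteasome genes PSMB8 and PSMB9 had -0.52 ± 0.14 and -0.55 ± 0.15 (adjusted p = 0.115 and 0.14). B2M, the class I light chain, had -0.10 ± 0.09. The list's median change was 0.04 with acadesine, 0.01 with rituximab and -0.23 with the combination. The 17 class II genes had a median departure of -0.11, with 12 below 0 and 0 called (6 lower and 1 higher at an unadjusted p under 0.05). Several class I genes, TAP1 among them, are interferon targets too.

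**Figure D3:**
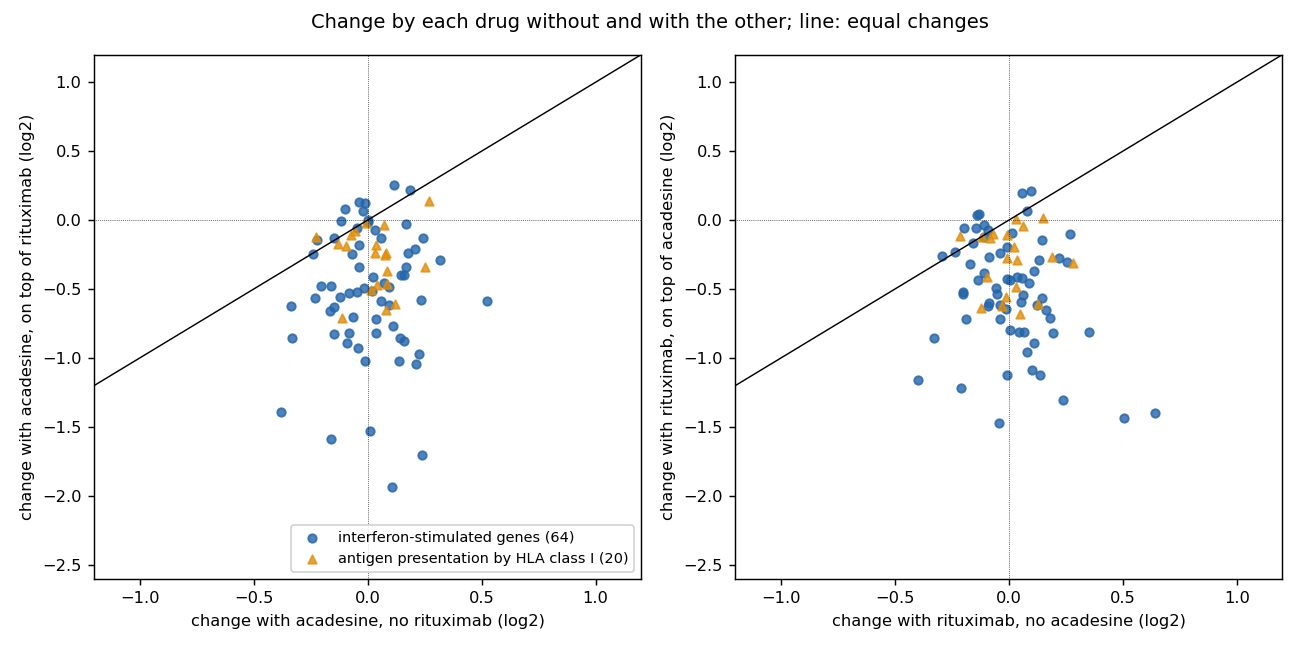
Log2 change with acadesine (left) or rituximab (right) in the absence of the other drug (x axis) and on top of it (y axis) for 64 interferon-stimulated genes (blue circles) and 20 HLA class I presentation genes (orange triangles); the line marks equal changes. Most points lie near 0 on the x axis and below the line, with IFIT2 at 0.11 and -1.94 in the left panel.

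Because many interferon-stimulated genes, though not all, carry a common control element, promoters were read from RefSeq (GRCh38.p14). The core of the interferon-stimulated response element, GAAANNGAAA, was searched on both strands and counted once per promoter in the 200 bases before each gene's start. It was found in 25 of the 47 interferon-stimulated genes with a promoter entry (53.2%) and in 6 of 17 class I genes (35.3%), against 2.44% of 27305 promoters. In the called genes with a promoter entry it was found in 0 of 31 above the expectation and 1 of 12 below, the latter being TAP1. IFIT2 had no promoter entry and was not searched. Windows of 80 bases are shown because they hold the motif, in capitals, in genes described above: IFIT1 on chr10:89392477-89392556 (plus strand, motifs starting 116 and 103 bases before the gene's start), ISG20 on chr15:88638917-88638996 (plus strand, 69 bases before), TAP1 on chr6:32853789-32853868 (minus strand, 134 bases before) and TAP2 on chr6:32838748-32838827 (minus strand, 58 bases before).
IFIT1: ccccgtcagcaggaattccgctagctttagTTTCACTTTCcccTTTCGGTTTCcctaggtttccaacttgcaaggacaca
ISG20: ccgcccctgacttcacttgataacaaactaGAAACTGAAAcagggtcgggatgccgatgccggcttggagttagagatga
TAP1: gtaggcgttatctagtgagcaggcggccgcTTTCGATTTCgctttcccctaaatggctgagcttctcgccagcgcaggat
TAP2: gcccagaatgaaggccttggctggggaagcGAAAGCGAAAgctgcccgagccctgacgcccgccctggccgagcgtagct
IFIT1 and TAP1 carry the motif in the reverse direction and ISG20 and TAP2 in the forward one. A match describes the sequence only, and binding was not measured.

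The other called genes below the expectation had varied roles. RGCC, a cell cycle regulator gene, had a departure of -1.52 ± 0.30, VAV3, a signaling gene downstream of the B cell receptor, -1.28 ± 0.26, and SLC16A4, a monocarboxylate transporter family gene, -0.995 ± 0.18. TCIRG1, a subunit of the proton pump that acidifies lysosomes, had -1.004 ± 0.20, TXNDC9, a thioredoxin domain gene, -0.71 ± 0.14, and JCHAIN, the peptide that joins antibody polymers, -0.66 ± 0.13. Their limma adjusted p values lay between 0.0202 and 0.0369. SLC39A10, a zinc importer that B cells need for survival, read 11.12, 10.97 and 11.11 in control, 11.25, 11.28 and 11.10 with acadesine, 11.43, 11.41 and 11.32 with rituximab and 10.97, 10.73 and 10.84 with the combination. The rituximab tumors were above all controls, and the highest combination tumor lay at the level of the lowest control. The departure was -0.68 ± 0.11 (adjusted p = 0.0143).

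Metallothioneins, the zinc-binding storage proteins, had lower means with each drug than in control, and the lowest with both, taken as a median over genes. Over 10 measured genes the median change was -0.39 with acadesine, -0.30 with rituximab and -0.91 with the combination, and the median departure was -0.27, from -0.94 to 0.29, with 8 of 10 below 0 and 0 called. MT1X read 8.79, 8.63 and 8.16 in control, 7.59, 8.48 and 7.67 with acadesine, 7.57, 8.37 and 7.31 with rituximab and 6.61, 6.50 and 7.21 with the combination. The single-agent tumors overlapped the controls, and the combination tumors did not overlap either. MT1X fell by 1.76 with the combination (adjusted p = 0.000664 in limma) and its departure of -0.36 had a 95% interval of -1.12 to 0.39, which includes additivity as well as a departure of over 2-fold. MT1G fell by 2.09 with the combination, and its departure was -0.83 (-1.83 to 0.17), with -0.98 and -0.73 on its other probe sets. The 33 metallothionein and zinc transporter genes had a median departure of -0.16, with SLC39A10 the 1 called. The metal response element core, TGCACNC or TGCGCNC on either strand of the same 200 bases, was found in 12 of the 26 with a promoter entry (46.2%), against 21.4% of all promoters.

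The drugs' own targets gave no called departure. PRKAA1, the alpha-1 catalytic subunit of AMP-activated protein kinase, read 6.17, 5.90 and 5.99 in control, 5.52, 5.51 and 5.75 with acadesine, 5.39, 5.70 and 5.74 with rituximab and 5.42, 5.15 and 5.31 with the combination. All 9 treated tumors were below the controls, and the changes were -0.42, -0.41 and -0.73. The departure of PRKAA1 was 0.11 with an interval of -0.38 to 0.60. MS4A1 had -0.30 (-0.60 to -0.01, adjusted p = 0.449 in limma) and ADK -0.09 (-0.36 to 0.18). The other probe sets of MS4A1 were also below 0, at -0.55 ± 0.16 and -0.33 ± 0.19, and neither was called over all probe sets. The 49 genes of AMP-activated protein kinase, the brakes on mTOR and acadesine handling had a median departure of -0.01, with 24 above 0, 25 below and 0 called.

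Proliferation and energy genes leaned in opposite directions without a called member. Of 45 mitosis genes 39 were above 0, with a median of 0.17 and 11 higher and 0 lower at an unadjusted p under 0.05. Over all genes 8716 of 18239 were above 0, and 5.65% were higher and 5.17% lower at that p. CENPF, a kinetochore protein gene, had 0.95 ± 0.22 (limma adjusted p = 0.0699), and MKI67, which encodes the Ki-67 proliferation antigen, 0.63 ± 0.20 (adjusted p = 0.201). Of 39 oxidative phosphorylation genes 36 were below 0, with a median of -0.16 and 15 lower and 1 higher at that p. CYC1, cytochrome c1 of respiratory complex III, had -0.43 ± 0.10 (adjusted p = 0.082) and SDHA, the flavoprotein of complex II, 0.44 ± 0.15. The 49 cytosolic ribosomal protein genes had a median of 0.03, from -0.15 to 0.20, and the 52 DNA replication genes 0.09 with 34 above 0. The 51 NF-kB and CD40 pathway genes had -0.08 beside a combination change of -0.33, and the 41 B cell and mantle cell lymphoma identity genes 0.01, with SOX11, a transcription factor that marks this lymphoma, at 1.53 ± 0.36 (adjusted p = 0.0773).

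**Figure D4:**
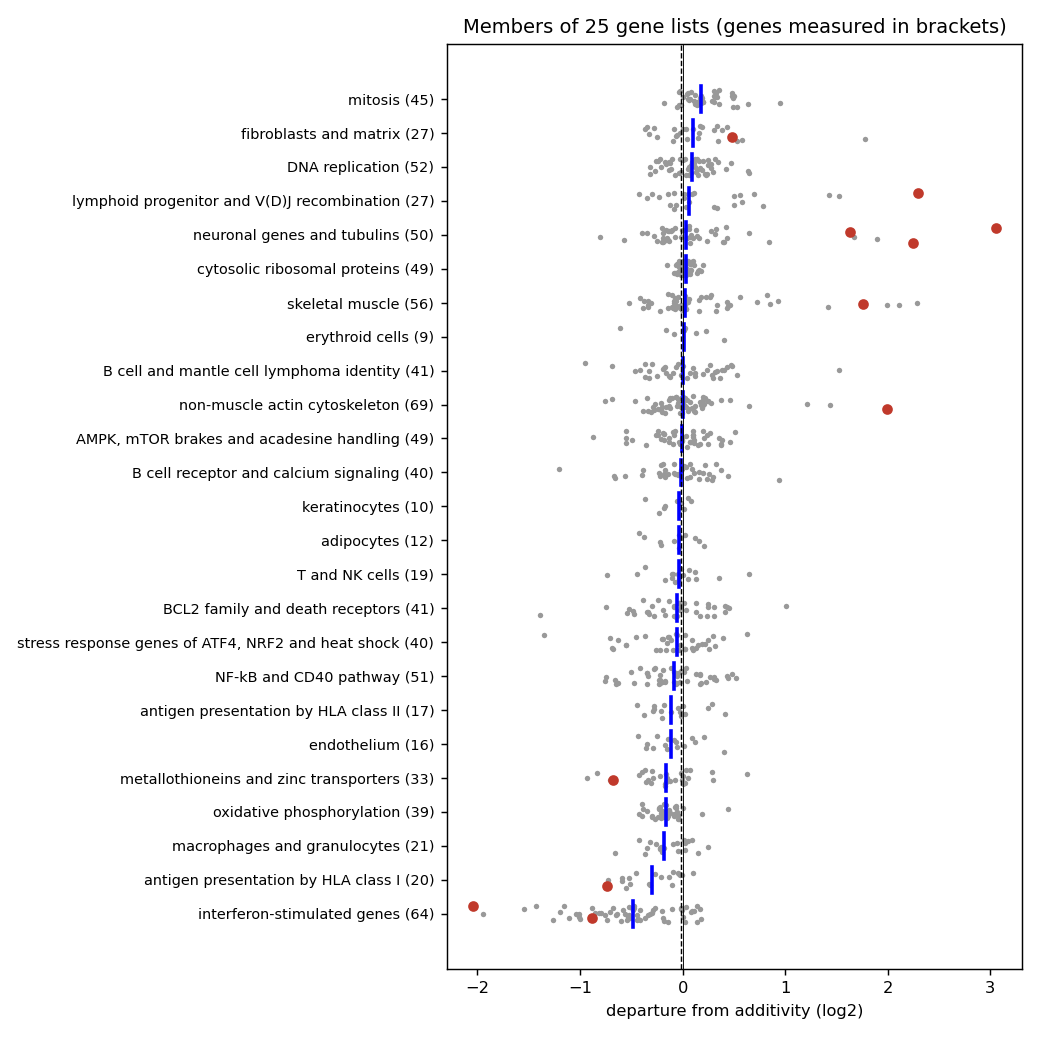
Departure from additivity in log2 units for the measured members of 25 gene lists, ordered by list median (blue bar); red points are called genes, the solid line is 0 and the dashed line the median of all genes. The interferon-stimulated genes lie lowest with a median of -0.49 and the mitosis genes highest with 0.17.

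The number of called genes rested on single tumors. Leaving out 1 tumor at a time gave between 5 and 157 called genes: 51, 27 and 22 without control 1, 2 and 3, then 5, 29 and 157 without acadesine 1, 2 and 3. It was 63, 11 and 49 without rituximab 1, 2 and 3, and 27, 17 and 35 without combination 1, 2 and 3. The 157 included all 51, and the 5 that were left without acadesine 1 were KCNC2, MAP1B, IL7R, NEURL1B and ZNF91, which were called in all 12 of these fits. SLC39A10, TOP2B, FOXN4 and ZFP82 were called in 11. At the other end VIM was called in 1 of the 12 fits, GSTO1 and NAA38 in 2, and NPPA, TUBA8, VAV3, TCIRG1, TXNDC9, RIF1, N4BP2, OCA2 and FAM177B in 3. IFIT2 and TAP1 were called in 6 and SP100 in 10, with the highest adjusted p at 0.0854, 0.0964 and 0.0566. All 51 kept their direction in each of these fits.

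Leaving out the 4 tumors of high muscle level keeps only 1 combination tumor, so the loss of calls there cannot be told apart from the loss of replicates. In that fit 0 of 18239 genes were called in limma, with 1024 at an unadjusted p under 0.05, and the 51 departures kept their direction at a median of 0.87 times their size (0.57 to 1.32). TUBA8 went from 1.81 to 1.09, ZNF709 from 2.13 to 1.34, NPPA from 2.17 to 1.42 and RGCC from -1.52 to -0.97. With the muscle level as a covariate 47 genes were called, 42 of them among the 51. VAV3 was among the 9 no longer called, at -1.24 with an adjusted p of 0.0641. The covariate lowered the pairwise counts more. Combination against control went from 450 called genes (208 higher, 242 lower) to 134 (97 higher, 37 lower). Against rituximab the combination went from 515 to 205, and against acadesine from 446 to 250. Acadesine 2 was the lowest of its group in 32 of the 37 genes above the expectation, against 34.9% of all genes, and rituximab 2 in 21 of the 37, against 34.8%. The part of muscle in these departures was not tested beyond these fits.

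**Figure D5:**
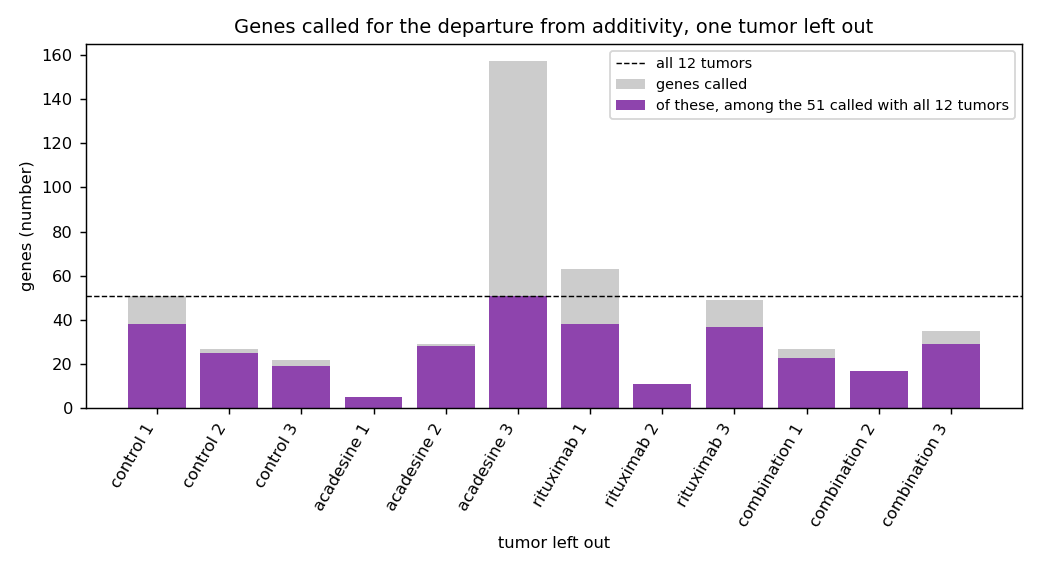
Number of genes called for the departure from additivity when each of the 12 tumors is left out in turn (grey), and how many of them are among the 51 called with all tumors (purple); the dashed line marks 51. The count is lowest without acadesine 1, at 5, and highest without acadesine 3, at 157.

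Other probe sets of the same gene mostly gave the same direction. Of the 51 called genes 40 had others, 106 in all, and 90 of the 106 had the same direction. Among the 65 with a mean level of at least 5, 63 did, and 49 were also at least 0.5 times as large. MAP1B had departures of 2.26, 1.64, 0.80 and 0.31 on its other probe sets and IL7R 1.75 and 1.10. SLC16A4 had -0.94, -1.09 and -1.17, and TAP1 -0.65. KCNC2 had 0.65 on its second probe set and IFIT2 -0.67. The other probe sets of ADGRG1, FMNL2 and SCD5 were dim and lay between -0.19 and 0.14. Further dim ones were those of ZNF709 (-0.10), NRN1 (-0.18), SCN3A (-0.01 and 0.22) and KCTD15 (-0.30 to 0.14). With a mean level of at least 5, that of AP3B1 had the opposite sign at 0.30. So did a probe set of CHML at -0.39, beside 1.11 and 0.26 on its remaining ones.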

How the data were processed

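The authors hybridised RNA from snap-frozen tumors to Affymetrix HT HG-U219 arrays and deposited log2 expression values after RMA (background correction, quantile normalization and summary per probe set) in BioConductor; the version is not given in the sources used here. Of 49386 rows, 93 were control probe sets, and 45253 named 1 gene, 1327 several and 2713 none. Each of 18239 genes was represented by its probe set of highest average across the 12 tumors. A model of 4 group means was fitted to these values in limma 3.58.1 (R 4.3.3) with an intensity trend, all contrasts came from that fit, and p-values were adjusted by Benjamini-Hochberg over all genes. p-values measure the spread between these tumors, and the number of arrays limits the precision. On simulated data with known answers the fit recovered, for the interaction over 18239 genes, 15 of 66 genes at a size of 0.5, 60 of 68 at 1 and 66 of 66 at 2, and called 15 unchanged genes. The simulation drew independent normal noise for each gene and tumor, so these counts need not hold for the real tumors. The members and the 25 gene lists were chosen with earlier results of these data known. Genes named are the 10 largest called departures in each direction, up to 4 members per list of smallest p with up to 2 of the other sign, and a short list of drug targets and lymphoma markers. Other genes in the text were chosen after their values were seen. Promoters came from RefSeq GRCh38.p14. Alternatives covered averaging a gene's probe sets, dropping dim genes, the variance model, array weights, centring, cyclic loess, linear intensities, a replicate block, a muscle covariate and each tumor left out. Leaving out the 4 tumors of high muscle level was added after seeing the data.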

Additional observations from a re-analysis of the deposited data

Results flagged for a closer look

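The change with acadesine differed between tumors without and with rituximab in each of the 51 called genes, by limma's test of that difference (adjusted p under 0.05 over all genes), and these are listed with the departure from additivity in log2 units. Above the additive expectation were KCNC2 (3.06), ADGRG1 (2.61), PSD3 (2.61), NEURL1B (2.58), IL7R (2.30), MAP1B (2.24), NPPA (2.17), ZNF709 (2.13), FMNL2 (2.00), TUBA8 (1.81), LDB3 (1.76), AMOTL1 (1.72), ADGRA2 (1.71), AFAP1 (1.65), SCN3A (1.63), FAM177B (1.61), OCA2 (1.60), NRN1 (1.60), WWC3 (1.51), ZNF345 (1.4999), PLIN2 (1.46), ZNF91 (1.44), ZFP82 (1.40), SCD5 (1.36), ZNF43 (1.36), FOXN4 (1.18), KCTD15 (1.18), N4BP2 (1.08), CAPSL (1.02), RIF1 (0.87), RBMS1 (0.87), ZMIZ1 (0.84), SMARCC1 (0.83), CHML (0.76), FOXP1 (0.59), TOP2B (0.54) and VIM (0.48). Below it were IFIT2 (-2.04), RGCC (-1.52), VAV3 (-1.28), TCIRG1 (-1.004), SLC16A4 (-0.9954), SP100 (-0.89), TAP1 (-0.73), TXNDC9 (-0.71), SLC39A10 (-0.68), JCHAIN (-0.66), GSTO1 (-0.60), AP3B1 (-0.59), NAA38 (-0.54) and PLAC8 (-0.49). No explanation was tested for any of them.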

How the results depend on the processing

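The 51 called departures kept their direction under every alternative run that tested them. The count of 51 (37 higher, 14 lower) was 10 (10 and 0) with the mean over a gene's probe sets, 9 (9 and 0) without the intensity trend and 27 (22 and 5) on linear intensities, of which 8, 9 and 21 were among the 51. It was 0 (0 and 0) without the 4 tumors of high muscle level, an alternative chosen after seeing the data that leaves 8 tumors and 1 combination tumor, whose spread is taken to be that of the other groups. With 1 tumor left out it ran from 5 to 157 (5 to 108 higher, 0 to 49 lower). With a tumor of the compared groups left out, combination against control ran from 140 to 576, against rituximab from 106 to 643 and against acadesine from 112 to 523 (546 without control 2), and each single agent against control stayed at 0. The median departure ran from -0.58 to -0.36 for interferon-stimulated genes and from -0.36 to -0.22 for HLA class I genes. The other alternatives gave 38 to 68 called genes. With the replicate block 68 were called, 49 of the 51 among them. No label says what equal replicate numbers share, and the tumors were not treated as pairs. Deviations of same-numbered tumors correlated at -0.12 to 0.19 over 18 pairs, and those of differently numbered tumors at -0.24 to 0.15 over 36. Of the 12 tumors, 8 correlated best with their own number, and tumor 2 had the highest muscle level in each group. Whether a factor was shared by number cannot be told from the labels. Dim probe sets near the array's floor compress changes.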

Other observations

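Genes whose symbol starts with ZNF or ZFP and a number, mostly zinc finger transcription factors, leaned above the additive expectation, a family looked at after the calls were seen. Of 516 measured, 351 had a departure above 0 and 165 below, with a median of 0.12 beside -0.01 for all genes. Called higher were 5 of them (0.969%, beside 0.203% of all genes): ZNF91, ZNF43, ZNF345, ZNF709 and ZFP82. At an unadjusted limma p under 0.05, 72 were higher (14.0%, beside 5.65% of all genes) and 7 lower. The family's median change was -0.07 with acadesine, -0.03 with rituximab and 0.01 with the combination. Many of these genes have near-identical copies, so that their probe sets may share signal.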
